A study of Homo sapiens with 6 samples.

Results

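The mRNA of 10 Krüppel-like factors, KLF2, KLF3, KLF4, KLF5, KLF6, KLF7, KLF9, KLF10, KLF11 and KLF13, was followed through p53 activation in HCT116 cells. The genes were chosen by name out of the 57905 genes counted, with no threshold on their values but with earlier results of these data known. Each was found once by its Ensembl identifier. All 10 were among the 16565 genes with enough counts to be tested. HCT116 is an established line of human colorectal carcinoma with wild-type p53. Nut 0h cells received the vehicle DMSO, and Nut 1h and Nut 10h cells received 10 µM Nutlin-3a, which releases p53 from its inhibitor MDM2, for 1 h and 10 h. RNA-seq libraries were made from 2 biological replicates per condition, 6 libraries in all, and all of them come from this 1 line. The p-values below therefore set each difference against the spread between replicate libraries of this line, pooled over all conditions. They do not cover a spread between lines.

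Krüppel-like factors are zinc finger transcription factors that bind GC-rich and CACCC sequences in promoters and enhancers, sites they share with the related SP proteins. Their ends outside the zinc fingers differ, so that some members mostly activate transcription through histone acetyltransferases, while others recruit the corepressors CtBP or Sin3A. In the gut epithelium KLF5 is known from the dividing cells of the crypt and KLF4 from the differentiated cells above them, and several members are known as immediate early genes whose short-lived transcripts respond quickly to growth factors and stress.

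Between 26068076 and 35473485 reads were assigned to genes per library. A normalized count below is a count divided by the library size scaled with the TMM method and multiplied by the mean of those sizes, and each log2 fold change is from edgeR's quasi-likelihood test over the 6 libraries, with its standard error (SE) and a Benjamini-Hochberg adjusted p over the 16565 genes. A gene was called at an adjusted p of at most 0.05. MDM2, the p53 target that Nutlin-3a keeps from p53, rose 4.56-fold after 1 h (a log2 fold change of 2.19) and 13.4-fold after 10 h, and CDKN1A, which encodes p21, rose 14.3-fold after 10 h and had a log2 fold change of 0.05 after 1 h (edgeR adjusted p = 0.704). Several epithelial markers were present in the vehicle, with a mean of 9381 normalized counts for EPCAM, 2264 for CDH1 and 1155 for CDX2, whereas the intestinal keratin KRT20 had between 15 and 37 raw counts in a library and VIL1 between 0 and 10. After 1 h the tested genes had lower log2 fold changes where the transcript had a higher GC content, with a median of 0.59 for genes within 2 percentage points of 41.1% GC and -0.91 for those around 61.2%. For this reason the value with an offset that removes each library's smooth trend on GC content is given beside the results of the 10 genes after 1 h and where it changes a call named below, and the part of GC content in them was not tested. With this offset MDM2 was at 1.51 after 1 h, and CDKN1A was called higher already then (0.70, edgeR adjusted p = 2.61e-06).

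The 10 genes spanned a wide range of levels per transcript length. In vehicle cells KLF2 had the highest level, with 69.5 and 57.5 RPKM (reads per kilobase of merged exons, scaled to the library size) in the replicates. KLF10 followed with a mean of 31.0 RPKM, then KLF5 with 16.6 and KLF6 with 16.0 RPKM, whose replicates overlapped. KLF4 (11.2 RPKM), KLF13 (10.2 RPKM) and KLF3 (5.38 RPKM) were intermediate. KLF11 (2.25 RPKM), KLF9 (2.03 RPKM) and KLF7 (1.44 RPKM) were lowest, each with replicates apart from those of its neighbour in the order. After 1 h of Nutlin-3a the order changed, and KLF10 led with 70.4 RPKM, ahead of KLF5 (26.7), KLF6 (20.5) and KLF2 (11.9 RPKM). The RPKM values carry no GC-content offset. With it the log2 fold change after 1 h was -1.52 in place of -2.42 for KLF2 and 0.34 in place of 0.69 for KLF5. It was 0.04 in place of 0.36 for KLF6 and 0.98 in place of 1.18 for KLF10. The order after 1 h was not computed with the offset, and the place of KLF2 in it holds for the values without it. After 10 h KLF2 led again with 67.6 and 46.6 RPKM, and KLF10 (19.0 RPKM) lay beside KLF5 (18.5 RPKM) with overlapping replicates. With the length of the longest transcript in place of merged exons, KLF6 in the vehicle had 21.4 RPKM and stood above KLF5 with 18.2, and KLF13 with 14.1 RPKM stood above KLF4. On that scale KLF6 (21.1 RPKM) stood above KLF5 (20.3) and KLF10 (19.8 RPKM) after 10 h.

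**Figure D1:**
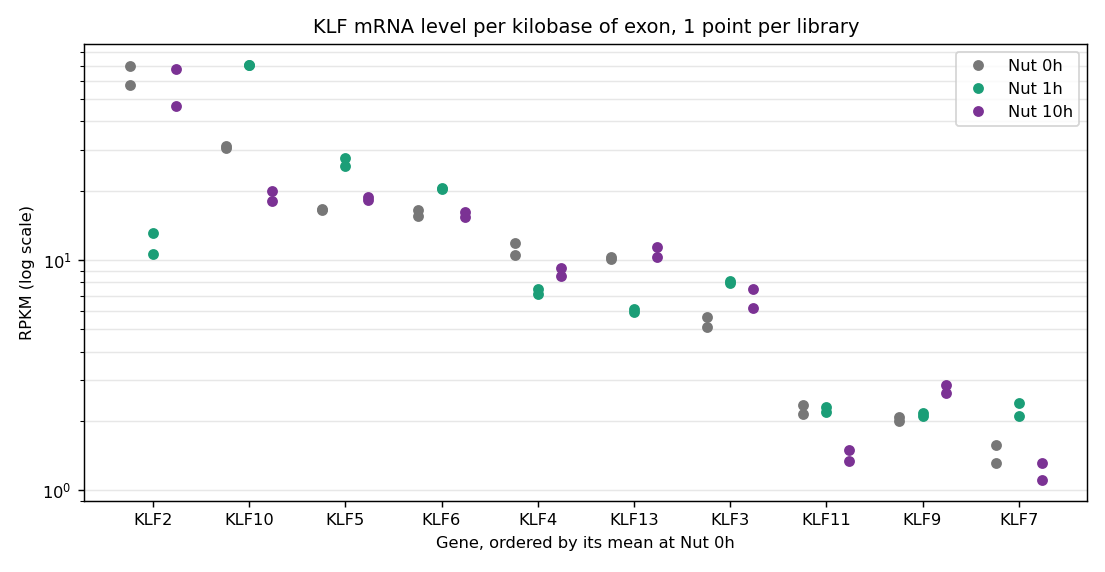
Level of each Krüppel-like factor in RPKM on a log scale, with 1 point per library and the genes ordered by their mean at Nut 0h (grey, Nut 0h; green, Nut 1h; purple, Nut 10h). KLF2 drops from a mean of 63.5 RPKM in vehicle cells to 11.9 after 1 h and is back at 57.1 after 10 h, while KLF10 goes from 31.0 to 70.4 and then 19.0 RPKM. The values carry no GC-content offset.

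Promoter windows were read from RefSeq (GRCh38.p14) for 8 of the 10 genes, as the 250 bases before each annotated start, 13 windows in all. Each of these sequences had 1 exact match in GRCh37, the build of the counts, and its coordinates there are given. The windows are shown for KLF2, which had the largest change at 1 h, for KLF5, which was upregulated at 1 h with and without the GC-content offset, and for KLF11, which was downregulated at 10 h. Capitals mark matches on either strand to CACCC (the KLF box), to the TATA box letters TATAAA, to TGACG from the cAMP response element, and to CCAAT. The p53 decamer, of which a full p53 site holds a pair, was searched by name and had no match in any of the 13 windows. The KLF2 window lies at chr19:16435387-16435636 on the plus strand, directly before the gene. The KLF5 window, at chr13:73632893-73633142 on the plus strand, and the KLF11 window, at chr2:10184098-10184347 on the plus strand, lie within the annotated span of their gene, before a downstream start. KLF5 and KLF11 have 2 windows each, and the one with more motif matches is shown.
KLF2: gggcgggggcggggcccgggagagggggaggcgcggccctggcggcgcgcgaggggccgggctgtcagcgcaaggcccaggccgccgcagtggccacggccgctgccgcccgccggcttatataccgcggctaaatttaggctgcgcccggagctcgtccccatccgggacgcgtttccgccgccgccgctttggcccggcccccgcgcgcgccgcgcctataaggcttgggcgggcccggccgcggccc
KLF5: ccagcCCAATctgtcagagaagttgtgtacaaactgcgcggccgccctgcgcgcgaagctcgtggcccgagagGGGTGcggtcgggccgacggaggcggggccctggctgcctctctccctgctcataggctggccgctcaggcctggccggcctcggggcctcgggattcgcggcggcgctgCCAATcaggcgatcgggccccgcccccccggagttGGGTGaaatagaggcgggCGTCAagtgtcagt
KLF11: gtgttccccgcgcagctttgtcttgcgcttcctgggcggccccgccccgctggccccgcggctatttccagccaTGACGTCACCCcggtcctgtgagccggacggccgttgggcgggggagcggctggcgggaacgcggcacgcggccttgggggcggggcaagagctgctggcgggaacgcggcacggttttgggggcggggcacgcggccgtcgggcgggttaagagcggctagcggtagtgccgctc
The KLF2 window holds none of the motifs searched and has a GC content of 80.0%. The KLF5 window shown holds 2 CACCC, 1 TGACG and 2 CCAAT matches, and the other KLF5 window, directly before the gene, holds 1 CACCC and 1 TATAAA match. The KLF11 window shown holds 1 CACCC match and 2 TGACG matches, the latter from both strands of the same palindrome, which overlaps the CACCC match, and the other KLF11 window holds none of the motifs. Among 35116 RefSeq windows of the same length, 54.7% hold CACCC, 21.2% TGACG, 32.0% CCAAT, 10.7% the TATA box letters and 5.57% the p53 decamer. These matches describe the letters of the windows and not binding.

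The comparison of Nut 1h with Nut 0h asks which of these genes differed after 1 h of Nutlin-3a. No library came from cells without p53, so that the part of p53 in any difference was not tested. KLF10 rose 2.27-fold and KLF5 rose 1.61-fold, whereas KLF2 fell 5.36-fold, and these 3 calls were also made with the GC-content offset. In all, 5 of the 10 genes were higher after 1 h (KLF3, KLF5, KLF6, KLF7 and KLF10), 3 were lower (KLF2, KLF4 and KLF13), and KLF9 and KLF11 were not called. Of the 16565 tested genes, 66.9% were called after 1 h, 34.5% higher and 32.3% lower, so that calls were common among all genes. With the offset 2 of the 10 genes were higher and 1 lower, beside 20.6% and 24.8% of all genes (45.4% in either direction). At least 2-fold and called, KLF10 was higher and KLF2 lower, beside 10.1% and 13.9% of all genes. The median log2 fold change of the 10 was 0.21, against 0.05 for all tested genes. With the offset it was -0.08, against -0.01 for all tested genes. These are bulk measurements, in which fewer cells expressing a gene and less of its RNA per cell cannot be told apart.

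Among the activating members, KLF2, a factor of quiescent endothelial cells and lymphocytes (GRCh37 chromosome 19, 16435637 to 16439496, plus strand), had 6469 and 5352 normalized counts in the vehicle and 985 and 1222 after 1 h. Both Nut 1h libraries were far below both vehicle libraries. The log2 fold change was -2.42 (SE 0.165, edgeR adjusted p = 1.02e-07) and -1.52 with the GC-content offset. The mRNA has a GC content of 61.2%, and the median of the 1692 tested genes within 2 percentage points of it was -0.91. Of those genes, 1.42% had a lower value than KLF2. KLF2 was thus at the low end also among genes of like composition.

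KLF4, a factor of differentiating epithelium and a component of the classical reprogramming cocktail (chromosome 9, 110247133 to 110252763, minus strand), had 1429 and 1277 normalized counts in the vehicle and 901 and 861 after 1 h, without overlap. It fell by 0.62 on the log2 scale (SE 0.102, edgeR adjusted p = 0.000106), but with the GC-content offset the difference was -0.13 (edgeR adjusted p = 0.178). Its GC content is 55.9%, and 43.6% of the genes of like composition had a lower value, so that KLF4 stood near their middle.

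KLF5, the factor of dividing crypt cells (chromosome 13, 73629114 to 73651679, plus strand), had 1997 and 2030 normalized counts in the vehicle and 3123 and 3363 after 1 h. All Nut 1h values exceeded the vehicle values. The log2 fold change was 0.69 (SE 0.0902, edgeR adjusted p = 1.39e-05) and 0.34 with the offset (edgeR adjusted p = 0.00124). KLF6, an activator also described as a tumour suppressor candidate (chromosome 10, 3818188 to 3827473, minus strand), went from 3144 and 3355 to 4183 and 4137 normalized counts. Its rise of 0.36 (SE 0.0893, edgeR adjusted p = 0.00288) was the smallest of the 5. It was 0.04 with the offset (edgeR adjusted p = 0.706), and it lost its call without Nut 0h replicate 1 (0.30, edgeR adjusted p = 0.0507). KLF7, a factor best known from neurons (chromosome 2, 207938861 to 208038580, minus strand), had 416 and 501 normalized counts in the vehicle and 757 and 663 after 1 h, a log2 fold change of 0.63 (SE 0.128, edgeR adjusted p = 0.000582) that was 0.18 with the offset (edgeR adjusted p = 0.142). KLF6 and KLF7 thus stood apart from the vehicle libraries as normalized, and neither was called once the GC trend was removed.

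KLF3, a repressor that recruits CtBP (chromosome 4, 38665818 to 38703138, plus strand), had 1143 and 1262 normalized counts in the vehicle and 1804 and 1777 after 1 h. The Nut 1h libraries were both higher. The log2 fold change of 0.57 (SE 0.109, edgeR adjusted p = 0.000332) became -0.03 with the offset (edgeR adjusted p = 0.794). KLF3 has the lowest GC content of the 10 genes, 41.1%, and 48.4% of the genes of like composition had a lower value. An antisense gene, KLF3-AS1, overlaps its exons on the opposite strand, and without a stated strand setting the reads of both cannot be told apart.

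Among the members that bind Sin3A, KLF10, also named TGF-beta-inducible early gene 1 (chromosome 8, 103661012 to 103667953, minus strand), had 3859 and 3967 normalized counts in the vehicle and 8905 and 8865 after 1 h. The Nut 1h libraries lay far above the vehicle libraries. The log2 fold change was 1.18 (SE 0.0919, edgeR adjusted p = 2.35e-07) and 0.98 with the offset. Of the 2281 tested genes within 2 percentage points of its GC content of 47.2%, 92.4% had a lower value.

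KLF13, a factor of T lymphocyte activation (chromosome 15, 31619038 to 31727868, plus strand), had 3157 and 3218 normalized counts in the vehicle and 1900 and 1854 after 1 h, without overlap. It fell by 0.76 on the log2 scale (SE 0.0923, edgeR adjusted p = 6.64e-06) and had a value of -0.14 with the offset (edgeR adjusted p = 0.111), at a GC content of 57.7%. KLF9, a target of glucocorticoid and thyroid hormone receptors (chromosome 9, 72999520 to 73029573, minus strand), had 342 and 356 normalized counts in the vehicle and 370 and 359 after 1 h (log2 fold change 0.06, SE 0.116, edgeR adjusted p = 0.647). KLF11, the close relative of KLF10 (chromosome 2, 10182976 to 10194963, plus strand), had 326 and 357 normalized counts in the vehicle and 347 and 330 after 1 h (log2 fold change -0.01, SE 0.124, edgeR adjusted p = 0.944). The Nut 1h replicates of KLF11 lay within the range of the vehicle replicates, and those of KLF9 lay just above it. With the offset KLF9 was at -0.22 and KLF11 at -0.23, and neither was called. In all, the groups did not overlap for 9 of the 10 genes, beside 84.8% of all tested genes.

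**Figure D2:**
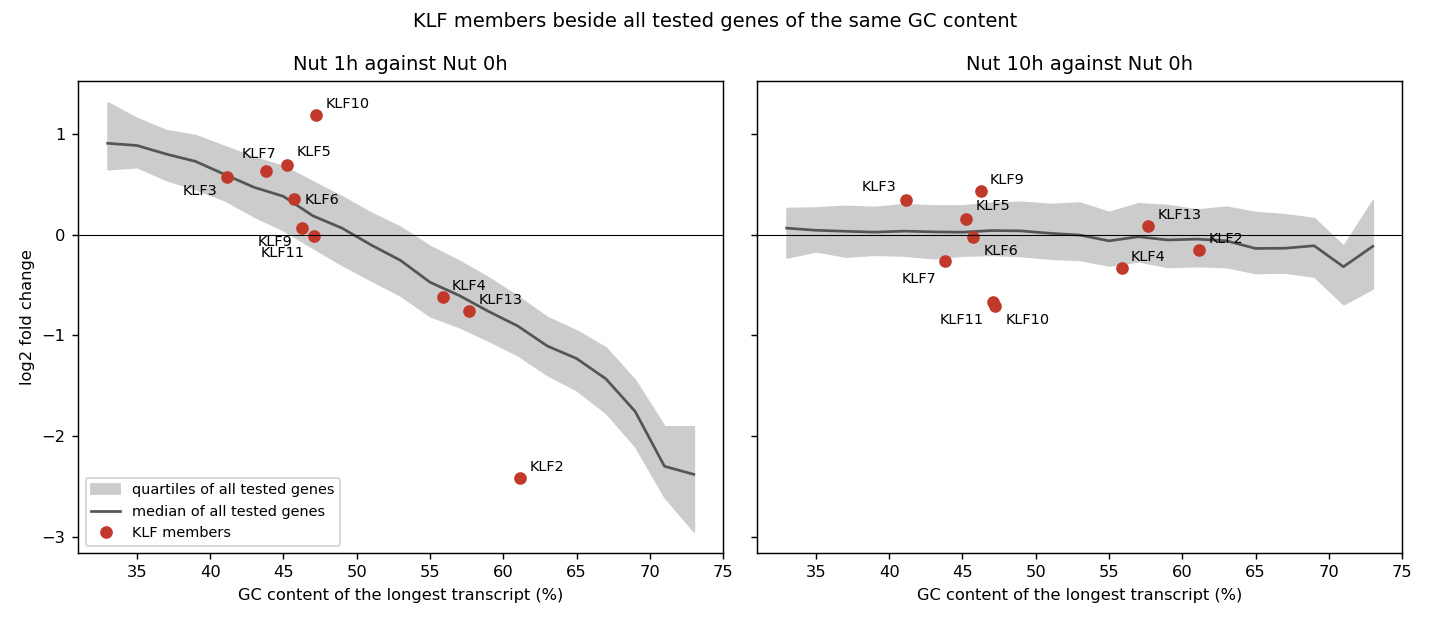
Log2 fold change of the 10 Krüppel-like factors (red points) at Nut 1h (left) and Nut 10h (right) against the GC content in percent of the longest transcript, with the median (line) and quartiles (band) of all tested genes in bins of GC content. At Nut 1h the median falls with GC content, with KLF2 at -2.42 below the band, KLF10 at 1.18 above it and KLF5 at 0.69 just above it. At Nut 10h the median lies between -0.14 and 0.06 up to a GC content of 70% and at -0.32 between 70% and 72%, with KLF10 at -0.71, KLF11 at -0.67, KLF4 at -0.33 and KLF7 at -0.26 below the band and KLF9 at 0.43 and KLF3 at 0.34 above it.

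The comparison of Nut 10h with Nut 0h asks what remained or appeared after 10 h of Nutlin-3a. KLF10 fell 1.63-fold and KLF11 fell 1.59-fold below the vehicle, and KLF4 fell 1.26-fold. KLF9 rose 1.35-fold and KLF3 1.27-fold. KLF2, KLF5, KLF6, KLF7 and KLF13 were not called. Thus 2 of the 10 genes were higher and 3 lower, where 29% of all tested genes were called, 14.1% higher and 14.9% lower. With the GC-content offset the same 2 were higher and 4 lower, KLF7 being added, beside 17% and 22.3% of all genes (39.3% in either direction). None of the 10 was called with a change of at least 2-fold, beside 3.74% of all genes higher and 3.11% lower. The median log2 fold change of the 10 was -0.09, against 0.000174 for all genes.

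KLF10 had 2273 and 2513 normalized counts after 10 h, below both vehicle libraries of 3859 and 3967. Its log2 fold change was -0.71 (SE 0.0922, edgeR adjusted p = 5.02e-05), and 6.94% of the tested genes had a lower one. KLF11 had 202 and 227 normalized counts against 326 and 357 in the vehicle, and fell by 0.67 on the log2 scale (SE 0.127, edgeR adjusted p = 0.00128). Both genes lay below the vehicle in both replicates, and these calls were kept with each library left out in turn and with the GC-content offset, where the values were -0.77 and -0.73. An unnamed long non-coding RNA overlaps exons of KLF11 on the opposite strand.

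KLF4 had 1116 and 1032 normalized counts after 10 h against 1429 and 1277 in the vehicle, a log2 fold change of -0.33 (SE 0.101, edgeR adjusted p = 0.0231). KLF9 had 492 and 451 against 342 and 356, a log2 fold change of 0.43 (SE 0.112, edgeR adjusted p = 0.00999). KLF3 had 1380 and 1667 against 1143 and 1262, a log2 fold change of 0.34 (SE 0.108, edgeR adjusted p = 0.0295). In each of the 3 the groups did not overlap, but the replicates of KLF3 and of KLF9 after 10 h were further apart than those of the vehicle. The calls of KLF3 and KLF4 were lost when Nut 0h replicate 1, Nut 10h replicate 2 or either of the Nut 1h replicates was left out, with edgeR adjusted p between 0.0600 and 0.230. That of KLF9 was lost without Nut 0h replicate 1 (edgeR adjusted p = 0.0530) and with DESeq2 (adjusted p = 0.0561), and that of KLF3 also in a fit of the 2 groups alone (edgeR adjusted p = 0.0575).

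KLF2 had 6297 and 4341 normalized counts after 10 h, overlapping the vehicle libraries of 6469 and 5352. Its log2 fold change was -0.15 (SE 0.154, edgeR adjusted p = 0.502). Without Nut 10h replicate 1 it was -0.44 and called (edgeR adjusted p = 0.00727), and without Nut 10h replicate 2 it was 0.11. KLF7 had 351 and 414 normalized counts, just below the vehicle libraries of 416 and 501. Its value of -0.26 (SE 0.132, edgeR adjusted p = 0.157) was -0.30 with the GC-content offset and then called (edgeR adjusted p = 0.0287). KLF5 (log2 fold change 0.16), KLF6 (-0.02) and KLF13 (0.09) had an edgeR adjusted p between 0.217 and 0.875. The groups did not overlap for 7 of the 10 genes, beside 61.4% of all tested genes.

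**Figure D3:**
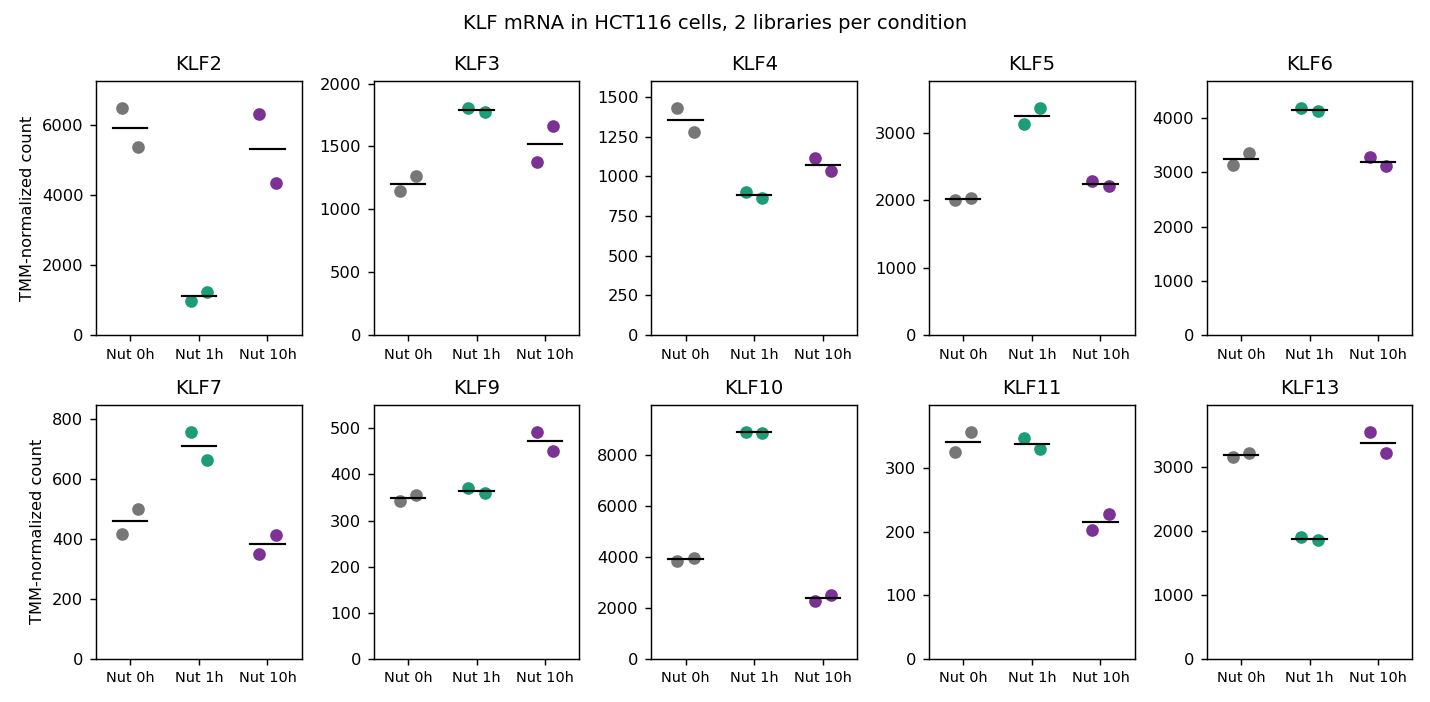
Normalized count of each Krüppel-like factor by condition, with 1 point per library and a black line at the mean of the 2 replicates. Each vertical axis starts at 0. KLF10 is highest at Nut 1h (8905 and 8865) and lowest at Nut 10h (2273 and 2513), and KLF2 is lowest at Nut 1h (985 and 1222).

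The comparison of Nut 10h with Nut 1h tests directly whether levels differed between the early and the late response. KLF2 rose 4.83-fold and KLF13 rose 1.80-fold from 1 h to 10 h, while KLF10 fell 3.71-fold, KLF7 fell 1.86-fold and KLF11 fell 1.58-fold. KLF4 and KLF9 were also higher at 10 h, and KLF5 and KLF6 lower. This made 4 of the 10 genes higher and 5 lower, beside 34.2% and 33.7% of all tested genes (67.9% in either direction). At least 2-fold and called, KLF2 was higher and KLF10 lower, beside 16.4% and 12.3% of all genes. Only KLF3 was not called among the 10. The Nut 1h libraries are the same as those of the first comparison, so that a gene high or low in them appears in both.

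The difference of KLF10 was -1.89 on the log2 scale (SE 0.0941, edgeR adjusted p = 1.51e-09), and the 4 libraries did not overlap, with 8905 and 8865 normalized counts after 1 h against 2273 and 2513 after 10 h. Of the tested genes, 3.04% had a lower value. The difference of KLF2 was 2.27 (SE 0.165, edgeR adjusted p = 4.60e-08), and 97.3% of the tested genes had a lower value. With the GC-content offset, under which 57.8% of all genes were called (28.8% higher and 29% lower), 4 of the 10 were higher and 5 lower. Both KLF10, at -1.74, and KLF2, at 1.35, kept their direction. KLF7 (log2 fold change -0.89), KLF5 (-0.53), KLF11 (-0.66), KLF13 (0.85) and KLF9 (0.37) were also called in the same direction with the offset. KLF5 was then at -0.23, KLF7 at -0.48, KLF11 at -0.50, KLF13 at 0.20 and KLF9 at 0.60. KLF4 changed its direction, from 0.28 (edgeR adjusted p = 0.0242) to -0.23 (edgeR adjusted p = 0.0208), and KLF6 went from -0.38 to -0.11 and was not called. KLF3 had a value of -0.23 as normalized (edgeR adjusted p = 0.0687) and 0.34 with the offset (edgeR adjusted p = 0.000790). It was called lower without Nut 10h replicate 2 (-0.32, edgeR adjusted p = 0.0197), and was at -0.06 without Nut 10h replicate 1 (edgeR adjusted p = 0.671). KLF4 and KLF9 lost their calls when either of the Nut 1h replicates was left out, and KLF4 also without Nut 10h replicate 1, with edgeR adjusted p between 0.0548 and 0.152. The groups of all 10 genes were apart, beside 85% of all tested genes.

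**Figure D4:**
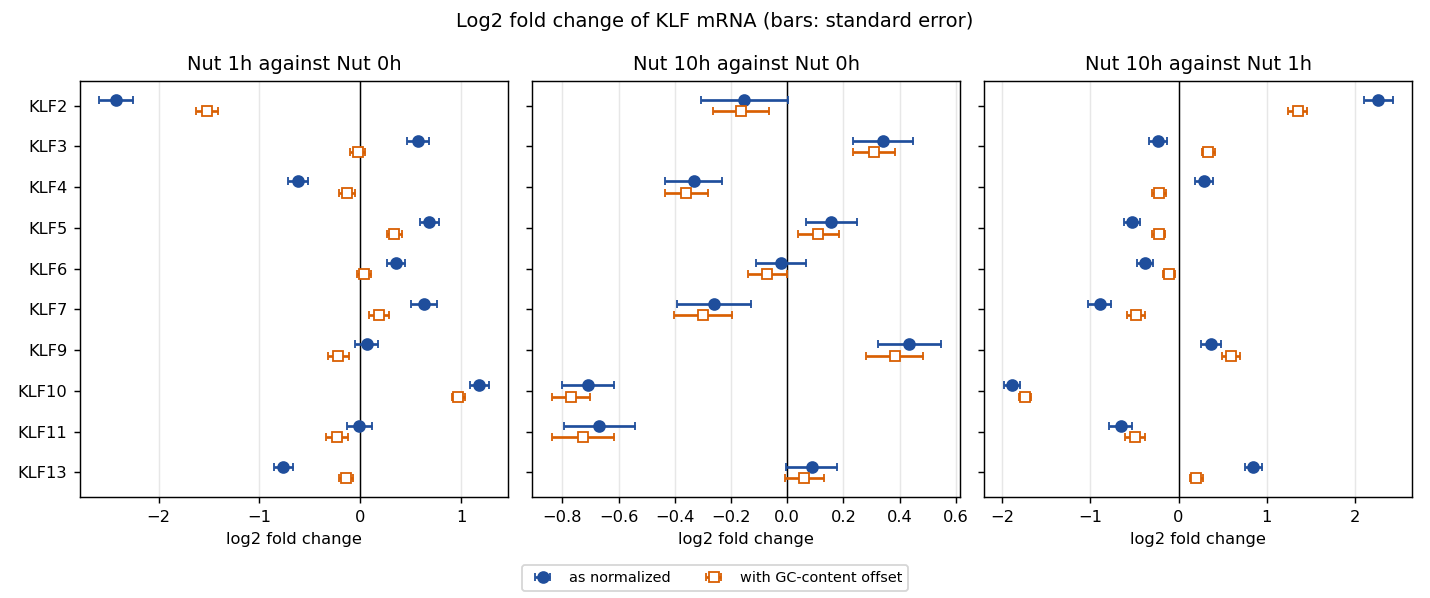
Log2 fold change with its standard error of the 10 Krüppel-like factors in the 3 comparisons, as normalized (filled circles) and with the GC-content offset (open squares). At Nut 1h KLF2, KLF5 and KLF10 stay away from 0 under both, whereas KLF3 moves from 0.57 to -0.03. At Nut 10h both kinds of value lie close together.

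The genes whose pattern over the 6 libraries was most like that of a member were sought for KLF2 and KLF10, which had the largest changes. The measure was the Euclidean distance of log2(CPM + 1) values, each gene centred on its mean, over the 11575 tested genes whose mean reached 100 normalized counts. Nearest to KLF2 were TIGD5 (distance 0.157), C20orf24 (0.198) and ADAT3 (0.229), with log2 fold changes after 1 h between -2.63 and -2.44. Their GC contents are 64.5%, 51.6% and 71.7%, and the median log2 fold changes after 1 h of all tested genes in the same bins of GC content were -1.23, -0.10 and -2.30, so that ADAT3 lay close to the median of its bin. Among the nearest to KLF10 were HAUS3 (0.130) and ZNF620 (0.164), which were higher by 1.16 and 1.30 after 1 h and lower by 0.82 and 0.69 after 10 h. Their GC contents are 39.3% and 45.3%, with bin medians of 0.73 and 0.38 after 1 h. These distances describe 6 values per gene.

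The rest of the family was read in the same way. Of the 16 other KLF and SP genes 13 were tested, and 4 were higher and 7 lower after 1 h, beside 34.5% and 32.3% of all tested genes. Their median log2 fold change after 1 h, as normalized and without the GC-content offset, was -0.60, against 0.05 for all tested genes. With the GC-content offset 2 were higher and 4 lower, beside 20.6% and 24.8% of all genes, the 4 including KLF14, to which no GC trend could be applied. After 10 h 1 was higher and 5 lower, beside 14.1% and 14.9%. The ubiquitous SP3, which competes for the same sites, had 2483 and 2648 normalized counts in the vehicle and 5071 and 4918 after 1 h, a log2 fold change of 0.96 (SE 0.0905, edgeR adjusted p = 8.95e-07) that was 0.20 with the offset. KLF16, a relative of the members that bind Sin3A, went from 5840 and 4280 to 1508 and 1742 normalized counts (-1.64, and -0.12 with the offset). In both, the groups were apart as normalized, and with the offset both values lay nearer to 0.

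KLF15, a metabolic regulator of liver and muscle, had 162 and 120 normalized counts in the vehicle, 46.2 and 50.3 after 1 h and 308 and 287 after 10 h. It fell by 1.55 after 1 h (0.72 with the offset) and rose by 1.07 after 10 h (SE 0.160, edgeR adjusted p = 0.000172), the 1 family member outside the 10 that was higher at 10 h. KLF14, an imprinted single-exon gene, had 72 and 55 raw counts in the vehicle, 12 and 5 after 1 h, where it was called lower, and 80 and 68 after 10 h. No GC content was matched to KLF14. SP5 and SP8, factors of the embryo, were lower at both times. With the offset SP5 was at -1.72 after 1 h in place of -3.10, and SP8 at -2.74 in place of -3.16. SP5 had 87.0 and 58.2 normalized counts in the vehicle, 10.0 and 6.29 after 1 h and 30.0 and 32.6 after 10 h, and SP8 had 40 and 35 raw counts in the vehicle, 5 and 2 after 1 h and 15 and 10 after 10 h. KLF1, KLF17 and SP7 had too few counts to be tested.

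**Figure D5:**
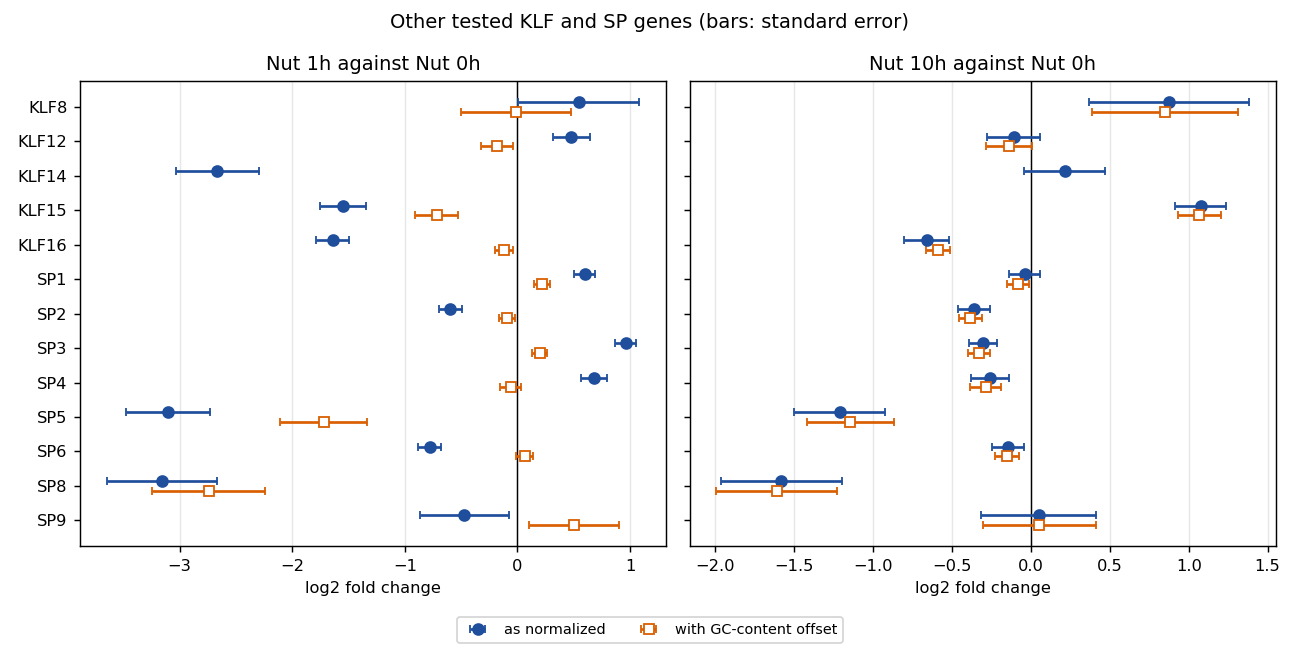
Log2 fold change with its standard error of the 13 other tested KLF and SP genes at Nut 1h (left) and Nut 10h (right), as normalized (filled circles) and with the GC-content offset (open squares, none for KLF14). KLF16 moves from -1.64 to -0.12 at Nut 1h with the offset, and KLF15 stays near 1.07 at Nut 10h under both.

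Of the 11 corepressors and coactivators that the members use, 4 were higher and 5 lower after 1 h, beside 34.5% and 32.3% of all tested genes, and 3 were higher and 5 lower with the offset, beside 20.6% and 24.8%. After 10 h 4 were lower and the other 7 not called, beside 14.1% of all genes higher and 14.9% lower, and 1 was higher and 5 lower with the offset, beside 17% and 22.3%. CTBP1, which KLF3 recruits, had 9290 and 8410 normalized counts in the vehicle and 4118 and 4365 after 1 h (log2 fold change -1.06, SE 0.103, edgeR adjusted p = 1.08e-06). With the offset it was -0.22 and still called. SAP30, a subunit of the Sin3A complex, had 669 and 560 normalized counts in the vehicle and 274 and 282 after 10 h (-1.14, SE 0.123, edgeR adjusted p = 8.22e-06). Both genes were below the vehicle in every treated library, with SAP30 at 426 and 390 and CTBP1 at 7612 and 6536 at the respective other time.

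Genes that are described as KLF targets in other cells were also counted, and several of them are known to respond to p53. Of the 12 listed, 11 were tested, and 4 were higher and 3 lower after 1 h, beside 34.5% and 32.3% of all tested genes, but 4 higher and 0 lower with the offset, beside 20.6% and 24.8%. After 10 h 5 were higher and 6 lower, beside the 29% of all genes called there. CDKN1A, a direct target of p53, had a log2 fold change of 3.84. The keratin gene KRT19 rose by 0.87 and the growth factor gene PDGFA by 0.74 after 10 h. The cell cycle genes CCNB1 (-1.64), CCNE1 (-1.35), CDK1 (-0.76) and BIRC5 (-1.54) fell, as did FASN, the fatty acid synthase (-0.52). The cell cycle gene CCND1 went the other way and was called higher (0.45, and 0.39 with the offset). After 1 h CDK1 (0.77) and CCNB1 (0.53) were instead called higher and KRT19 (-0.98), PDGFA (-0.75) and FASN (-1.01) lower. Under the offset FASN was called higher (0.27, edgeR adjusted p = 0.0111), and the other 4 lay between -0.13 and -0.01 and were not called.

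Markers of the tissue and of other cells were read beside these results. Of the 7 epithelial markers 6 were tested, of which 2 were higher and 3 lower after 1 h, beside 34.5% and 32.3% of all tested genes, and 1 higher and 1 lower with the offset, beside 20.6% and 24.8%. After 10 h 1 was lower and 5 were not called, beside 14.1% of all genes higher and 14.9% lower. The summed level of the 7 was 144710 and 122257 normalized counts in the vehicle, 90334 and 97474 after 1 h and 156483 and 131400 after 10 h. Most of this sum came from KRT8, which had 108466 and 91672 normalized counts in the vehicle. KRT8 had a log2 fold change of -0.71 after 1 h, and with the offset it was at -0.20 and not called. CDX2, the intestinal homeobox factor, had a log2 fold change of -1.29 after 1 h (-0.51 with the offset) and 0.09 after 10 h. EPCAM (0.46) and CDH1 (0.51) were called higher after 1 h. With the offset EPCAM was at 0.04 and not called, and CDH1 was at 0.38 and still called. Of the 7 markers of blood, endothelium and fibroblasts 6 were matched by symbol. PTPRC, CD3E, CDH5 and COL3A1 had at most 2 raw counts in a library. The summed level of the 6 was 1352 and 1406 normalized counts in the vehicle, 826 and 790 after 1 h and 1314 and 1194 after 10 h, nearly all from COL1A1, which was called lower after 1 h (-0.78, and 0.16 with the offset), while PDGFRB was called higher after 10 h with 34.8 and 32.6 against 15.5 and 11.3 normalized counts. The share of counts on the mitochondrial genome was 4.99% and 6.18% in the vehicle, 8.44% and 8.15% after 1 h and 6.45% and 7.06% after 10 h. The part of these differences in the KLF results was not tested.

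Counts of near-identical copies were small. The 10 KLF pseudogenes in the annotation had at most 13 raw counts in a library, reached by KLF2P1, against at least 209 for any of the 10 genes. Exons of KLF4 and KLF7 are overlapped on the opposite strand by long non-coding RNA genes, so that their counts share the uncertainty given for KLF3 and KLF11.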

How the data were processed

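RNA-seq libraries of vehicle-treated HCT116 cells and of cells given Nutlin-3a for 1 h or 10 h were analysed, with 2 biological replicates each, grouped by the sample labels. The authors trimmed reads with Trim Galore 0.6.6, aligned them to GRCh37 with STAR 2.7.0f and counted them per gene with featureCounts (Subread 2.0.0), and the deposited values are raw counts. The strand setting and the treatment of multimapping reads are not given in the sources used here. A second deposited table of the authors' own comparisons, with fold changes and p-values, was used for gene symbols only.

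Counts of 57905 genes were filtered with filterByExpr and tested with edgeR 4.0.16 (limma 3.58.1, R 4.3.3; TMM, quasi-likelihood, condition as the only term, 3 residual degrees of freedom). RPKM used TMM-scaled library sizes and merged exon lengths of GENCODE lifted to GRCh37. The GC-content offset was a loess trend (span 0.4) on the GC content of the longest transcript, known for 97.4% of tested genes. The test was checked on simulated data. Alternatives were other normalizations and filters, DESeq2 1.42.0, a fit of the 2 groups compared alone, a minimum fold change, a replicate block and each library left out, where a lone replicate was assumed to vary like the other groups. The offset together with the block was added after seeing the data. All 10 members are reported, listed genes by an absolute log2 fold change of at least 1 or by a list of at most 5 genes, and the 3 nearest genes in pattern, except for a gene near KLF10 that is not reported here. CCND1, SMAD7, EPCAM, CDH1, KRT8, KRT20, VIL1, COL1A1 and the markers near 0 fall outside this rule and were named after their values were seen. The members and lists were chosen with earlier results of these data known. Libraries of a condition differed by more than sampling noise (chi-square per degree of freedom 16.6, 5.13 and 16.7). Each member had at least 209 counts in every library. Figures were drawn with matplotlib 3.10.9.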

Additional observations from a re-analysis of the deposited data

Results flagged for a closer look

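For 9 of the 10 genes the effect after 10 h differed from the effect after 1 h against the same vehicle libraries, in edgeR's test of that difference, which equals the comparison of Nut 10h with Nut 1h. The differences on the log2 scale were 2.27 for KLF2, 0.28 for KLF4, 0.37 for KLF9 and 0.85 for KLF13, which were higher at 10 h. They were -0.53 for KLF5, -0.38 for KLF6, -0.89 for KLF7, -1.89 for KLF10 and -0.66 for KLF11, which were lower at 10 h. Of all tested genes 67.9% were called in this comparison. KLF10 is the 1 gene of the 10 that was called higher at 1 h and lower at 10 h, each against the vehicle, and KLF9 and KLF11 were called at 10 h and not at 1 h. With the GC-content offset KLF4 was lower at 10 h than at 1 h (-0.23), KLF6 was not called and KLF3 was called higher (0.34). Of all tested genes 57.8% were called with the offset.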

How the results depend on the processing

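Under RLE normalization, other low-count filters and a replicate block, all fold changes of the 10 genes kept their direction and call. With the block alone the calls over all genes went from 11077 to 10979 after 1 h, from 4810 to 4893 after 10 h and from 11246 to 11189 between them. Same-numbered replicates deviated together between Nut 0h and Nut 10h (r = 0.45 across genes) and not with Nut 1h (-0.31 and -0.28). These values do not settle whether the numbers pair the samples. With the GC-content offset 2 genes were higher and 1 lower after 1 h, and KLF3 (-0.027) and KLF9 (-0.22) changed sign, as did KLF3 (0.34) and KLF4 (-0.23) between 10 h and 1 h. With the offset and the block together the counts were again 2 and 1, and the values -0.026, -0.22, 0.33 and -0.23. With upper-quartile normalization KLF11 after 1 h was 0.022 and KLF6 after 10 h 0.022. At a minimum absolute log2 fold change of 1, 1 gene was higher and 1 lower after 1 h, 0 and 0 after 10 h, and 1 and 1 between them. DESeq2 and a fit of the 2 groups alone each left 1 gene higher after 10 h. DESeq2 called 9323, 3786 and 9544 genes in all, and the offset 7520, 6506 and 9582. The causes were not tested.

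With each library left out, the number of genes higher after 10 h ranged from 0 to 2, reaching 0 when Nut 0h replicate 1 was dropped and 1 when Nut 10h replicate 2 or either Nut 1h replicate was. That of genes higher between 10 h and 1 h ranged from 2 to 4, with 2 when either of the Nut 1h replicates was left out. KLF11 after 1 h ranged from -0.083 to 0.045, KLF2 after 10 h from -0.44 to 0.11 and KLF6 after 10 h from -0.071 to 0.026. With 2 replicates per condition, calls of small changes near the threshold depend on single libraries. The spread behind each p-value is pooled over all conditions, so that a left-out library can also alter calls of a comparison without it.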

Other observations

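Ubiquitin ligases that are known to act on KLF proteins were counted apart from the factors. Of 5 tested, 4 were higher and SIAH1 was not called after 1 h, and 2 were higher and 1 lower after 10 h. Of all tested genes 34.5% were higher and 32.3% lower after 1 h, and 14.1% and 14.9% after 10 h. With the GC-content offset 1 of the 5 was higher after 1 h and 1 lower, which was SIAH1 (-0.46, edgeR adjusted p = 0.0173), beside 20.6% and 24.8% of all genes. WWP1, a ligase described for KLF2 and KLF5, had 1495 and 1543 normalized counts in the vehicle, 2519 and 2503 after 1 h and 2145 and 2372 after 10 h. Its log2 fold change was 0.73 after 1 h and 0.09 with the GC-content offset, and 0.57 after 10 h and 0.54 with it (edgeR adjusted p = 0.000362 without the offset). FBXW7, the substrate receptor described for KLF2 and KLF5, had 748 and 699 normalized counts in the vehicle, 1068 and 1125 after 1 h and 1179 and 1199 after 10 h, and rose by 0.60 and 0.72 (0.30 and 0.67 with the offset). Both genes stood above the vehicle in all 4 treated libraries. SMURF2 (0.47) and BTRC (0.46) were called after 1 h alone, with -0.10 and 0.12 under the offset, and SIAH1 was called lower after 10 h (-0.53).

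The ERK5 and MEF2 branch, which is known to induce KLF2 and KLF4, was read as well. Of its 5 genes, all tested, 1 was higher and 3 lower after 1 h, and 1 was higher and 1 lower after 10 h, beside 66.9% and 29% of all tested genes called at these times. With the offset 0 were higher and 3 lower after 1 h, and 2 higher and 1 lower after 10 h, beside 45.4% and 39.3% called. MAPK7, which encodes ERK5, had 990 and 829 normalized counts in the vehicle, 418 and 456 after 1 h and 681 and 670 after 10 h. Its log2 fold changes were -1.06 (-0.39 with the offset) and -0.43 (-0.45 with the offset), and it was called under both at both times. MEF2A was called higher after 1 h as normalized (0.35) and lower with the offset (-0.25, edgeR adjusted p = 0.00947). MEF2D was lower after 1 h (-0.48, and 0.07 with the offset) and higher after 10 h (0.27). MAP2K5 was called lower after 1 h (-0.26) and was at -0.0028 and not called with the offset. MEF2C was not called against the vehicle as normalized, and was called lower after 1 h with the offset (-0.46, edgeR adjusted p = 0.00685).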
